A study of Arabidopsis thaliana with 6 samples.

Results

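The genes described here are those whose transcripts stood higher under anoxia than in air in both of 2 independent experiments on Arabidopsis thaliana seedlings. A level is log2(signal + 16) minus the median of its array, and members were chosen by these measured values: anoxia minus air had to be above 1 in experiment 1 and again in experiment 2. Of the 22746 probe sets of the array without controls, 15922 were tested because their 6-array mean was not below the 30th percentile, and 172 of these (1.08%) passed the threshold in both experiments. Left out were 8 that stood more than 1 above anoxia with sucrose in both experiments, 7 heat shock genes (2 of them among those 8), 1 fermentation gene (PDC2) and 10 probe sets for organelle-encoded genes. The remaining 148 probe sets are the members. The annotation gives 1 gene for 58 of them (39.2%, against 54.6% of the probe sets tested), several genes for 2 and none for 88. The unnamed members could not be checked against the exclusions.

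All seedlings were of ecotype Columbia glabra, kept at 23 °C in darkness until they were 4 days old, in Murashige and Skoog medium of reduced strength with no sucrose added. For the last 6 h they were kept under anoxia with 90 mM sucrose, under anoxia without sucrose, or in air as the aerobic control. Each group has 2 arrays, 1 per experiment, and each array carries RNA of 4 cultures pooled after extraction, so that the spread between cultures is not measured. No culture given sucrose in air was analysed here, and the seedlings are whole plantlets, in which fewer cells of a type and less RNA per cell cannot be told apart.

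Without oxygen, plant mitochondria stop making ATP by respiration, and cells depend on glycolysis coupled to fermentation, which consumes sugar quickly. In Arabidopsis the group VII ethylene response factors, which are degraded while oxygen is present, switch on a core set of low-oxygen genes, and calcium and hydrogen peroxide signals act beside them. Dark-grown seedlings live on seed reserves, so an external sugar supply bears on how long they can ferment.

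The arrays do not share a scale. Median signals were 21.2 and 50.6 with sucrose, 45.3 and 32.0 under anoxia and 46.2 and 30.8 in air (experiments 1 and 2). The array of anoxia with sucrose from experiment 1 stands apart in 1 measure of RNA quality, the ratio of 3' to 5' end signal. The ratio was 7.61 for GAPDH and 21.6 for actin, against 1.38 to 2.42 and 1.70 to 4.24 on the other 5 arrays. Values of experiment 2 do not use that array, and differences are given within each experiment beside those given as means of both. A 25S rRNA control, before centring, read higher on every array of experiment 1 than on any of experiment 2. It read 848 and 8.2 with sucrose, 1211 and 4.2 under anoxia and 167.5 and 12.5 in air. The part that RNA quality or this difference between experiments has in any result was not tested. The marker lists of plastid, root and guard cell lineage hold 5 genes with a tested probe set (PORB, LHCB4.1, EXPA18, FMA and SPCH), and none of them is a member.

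The median member stood 2.17 higher under anoxia than in air in experiment 1 and 1.55 higher in experiment 2, against 0.10 and 0.03 over all probe sets tested. The choice of members fixes this direction, so it is given as a description. The mean difference was above 2 for 62 members and above 4 for 12, 5 of which have a single gene. It was larger in experiment 1 for 111 members and in experiment 2 for 37. Both anoxia arrays lay above both air arrays, across experiments, for 144 of the 148 (97.3%, against 18.9% of all probe sets tested). Just inside the threshold were AT4G20320, a CTP synthase family gene, with differences of 1.15 and 1.00, and AT3G02910, with 2.26 and 1.01. AT4G20320 stood at 1.21 and 0.98 under anoxia and at 0.05 and -0.02 in air, and with sucrose it was -0.05 and 1.13 from air. Just outside were AT1G36640, with 1.84 and 0.99, and AT4G30310, with 0.98 and 1.08. AT1G36640 stood at 2.84 and -0.36 with sucrose, at 0.72 and 0.15 under anoxia and at -1.12 and -0.84 in air. AT4G30310 stood at 2.01 and 2.07 with sucrose, at 2.46 and 2.13 under anoxia and at 1.48 and 1.05 in air. In both of these genes every anoxic array was above air.

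**Figure D1:**
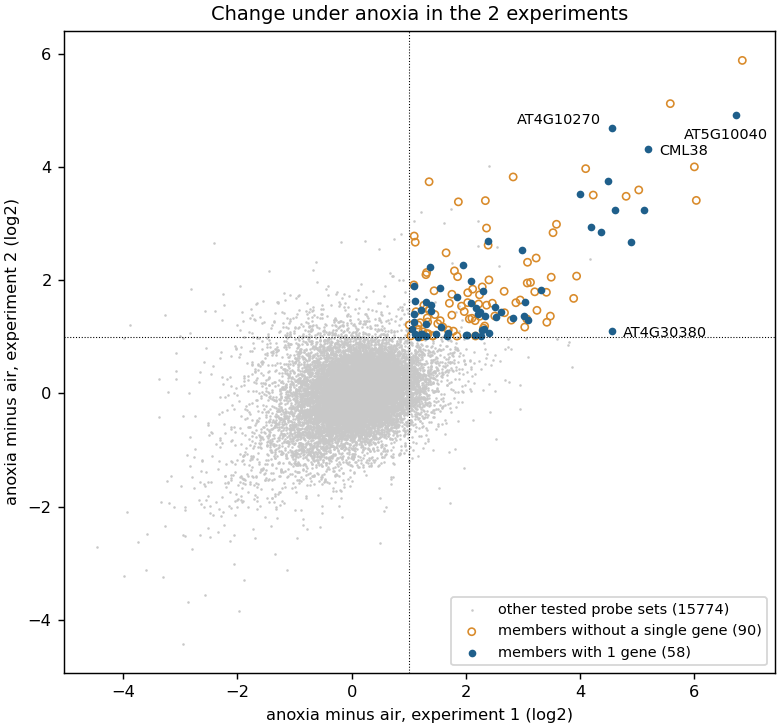
Each point is a probe set, with anoxia minus air in experiment 1 on the horizontal axis and in experiment 2 on the vertical axis, both in log2 units. The 148 members lie beyond the dotted lines at 1, and AT5G10040 has the largest differences of the members with 1 gene.

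The regulators and sensors of the low-oxygen response had some of the largest differences. CML38, a calmodulin-like calcium sensor found in stress granules of oxygen-deprived cells, stood at 5.29 and 3.63 with sucrose, at 4.54 and 4.09 under anoxia and at -0.66 and -0.22 in air. AT3G03270, the universal stress protein HRU1, which links low oxygen to hydrogen peroxide production, stood at 6.91 and 5.11 with sucrose, at 6.20 and 5.02 under anoxia and at 2.20 and 1.51 in air. AT3G10040, the trihelix factor HRA1, which restrains the group VII factor RAP2.12, stood at 2.46 and 0.89 with sucrose, at 3.02 and 1.86 under anoxia and at -1.34 and -0.98 in air. For CML38 and AT3G03270 every array of either anoxic group was far above both air arrays, and the anoxic groups overlapped each other. AT3G10040 was below its anoxia level with sucrose in both experiments, by 0.56 and 0.98, yet all 4 anoxic arrays were above air. Of the 17 listed oxygen-sensing genes 2 had a tested probe set, and these are AT3G03270 and AT3G10040.

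Genes of the core low-oxygen set with little-known or only family-level functions numbered 11. AT5G10040, a short protein of unknown function, had the largest mean difference among members with 1 gene, 5.82 (SE 0.70), about 56.4-fold. It stood at 5.56 and 3.71 with sucrose, at 5.13 and 3.72 under anoxia and at -1.60 and -1.19 in air. Before centring, on arrays that do not share a scale, its signal was 1734 and 858 with sucrose. It was 2126 and 616 under anoxia and 4.5 and 4.5 in air. The air signals are below the 16 added before log2, so the fold understates the difference. The same holds for 14 members with both air arrays below 16, 7 of them with 1 gene.

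AT4G10270, of the wound-responsive protein family, stood at 6.02 and 3.88 with sucrose, at 5.45 and 4.82 under anoxia and at 0.90 and 0.13 in air. Its relative AT4G33560 stood at 4.45 and 0.51 with sucrose, at 3.35 and 1.87 under anoxia and at -1.26 and -1.37 in air. Both wound-responsive genes were above air on all 4 anoxic arrays, and with sucrose both were higher than under anoxia in experiment 1 and lower in experiment 2. They are the only genes of the 17 on the jasmonate and wounding list that have a tested probe set. AT2G17850, with a rhodanese-like domain, stood at 5.37 and 2.74 with sucrose, at 5.15 and 3.22 under anoxia and at 0.03 and -0.01 in air. AT3G27220, a kelch repeat protein, stood at 2.66 and 2.08 with sucrose, at 3.71 and 2.36 under anoxia and at -0.47 and -0.57 in air. Neither gene had an anoxic array that reached down to air, and AT3G27220 was lower with sucrose than without it in both experiments.

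Other proteins of unknown function gave the same picture. AT5G66985 stood at 5.42 and 1.86 with sucrose, at 4.55 and 2.92 under anoxia and at 0.07 and -0.84 in air. AT4G24110 stood at 2.67 and 0.22 with sucrose, at 3.21 and 1.29 under anoxia and at -1.68 and -1.39 in air. AT1G33055 stood at 5.76 and 4.30 with sucrose, at 5.64 and 5.05 under anoxia and at 2.66 and 2.52 in air. All their anoxic arrays were above air, and the arrays of experiment 1 were above those of experiment 2 in either anoxic group. Smaller mean differences, between 1.60 and 2.02, belonged to AT3G29970, of the B12D family, AT3G23170, and AT4G27450, of the aluminium-induced YGL and LRDR domain family.

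**Figure D2:**
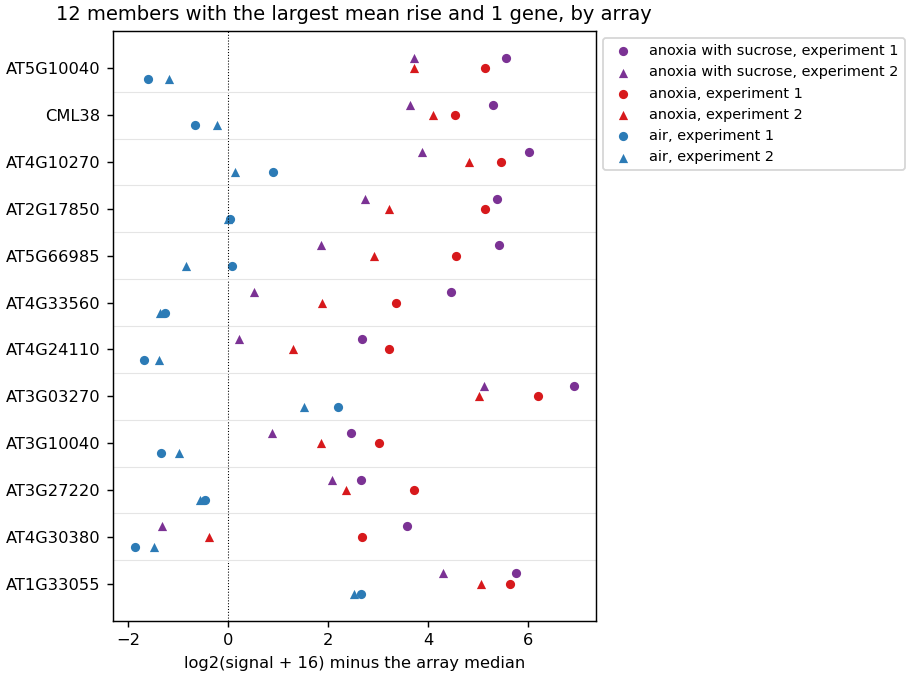
Levels on all 6 arrays, log2(signal + 16) minus the array median, are plotted for the 12 members with 1 gene and the largest mean anoxia minus air, grouped as anoxia with sucrose, anoxia and air. For every gene the air points sit below all points of either anoxic group, by least for AT4G30380, whose value with sucrose in experiment 2 is -1.32 against -1.87 and -1.49 in air.

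A low-oxygen list of 57 genes puts the members beside the rest of the response. Of its genes 31 had a tested probe set, 29 of these were above air in the mean of both experiments, and 19 are members. Among the members from that list the median difference was 4.00 in experiment 1 and 2.68 in experiment 2. The genes of the list that are not members include PDC2, the pyruvate decarboxylase left out as a fermentation gene, with 4.18 and 2.37, and several that passed in experiment 1 only, such as AT4G17670 (3.80 and 0.92) and AT5G42200 (2.94 and 0.14). AT3G61930 (-1.96 and -0.61) and AT5G45960 (-0.45 and -1.14) were lower under anoxia in both. By limma's test with Benjamini-Hochberg adjustment over all probe sets, 5 of the 31 were higher under anoxia, against 0.107% of all, and none lower. Blocking on the experiment gave 21 of the 31 higher, against 0.961% of all, and 1 lower. The list was compiled with these results known, so its counts are no independent evidence.

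Signalling genes formed the next group, 8 members with mean differences between 1.49 and 2.57. AT1G07870, a protein kinase, stood at 2.89 and 1.63 with sucrose, at 3.75 and 1.81 under anoxia and at 0.44 and -0.02 in air. The other members are a receptor-like kinase (AT1G66880), a type 2C protein phosphatase (AT3G16800), a phosphatidylinositol kinase family gene (AT1G26270), a VQ motif gene (AT2G22880), a TIR-domain immune receptor gene (AT1G72940), the universal stress gene AT3G11930 and SNZ, an AP2 factor that represses flowering. AT1G66880 and SNZ were among the genes with signals under 16 in air. With sucrose 6 of the 8 stayed more than 1 above air in both experiments, against 67.6% of all members and 1.44% of all probe sets. None was above its anoxia level in both, against 19.6% and 25.6%. The group was put together by hand from members chosen on the same air and anoxia arrays, so nothing is read from its counts.

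Members of metabolism and redox biology numbered 13, with mean differences between 1.08 and 2.54. AT2G31390, a fructokinase that feeds fructose into glycolysis, stood at 5.15 and 3.36 with sucrose, at 5.43 and 3.61 under anoxia and at 2.39 and 2.00 in air. All 4 of its anoxic arrays were above air, and those of the anoxic groups overlapped. AT2G36690, of the 2-oxoglutarate and iron dependent oxygenases, enzymes that use oxygen as a substrate, stood at 1.37 and 0.87 with sucrose, at 1.99 and 2.56 under anoxia and at -0.39 and -0.13 in air. Both sucrose arrays of this gene lay between the anoxia arrays and the air arrays.

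The same group holds AT2G29340, a short-chain dehydrogenase, which stood at 1.87 and 2.34 with sucrose, at 3.31 and 2.71 under anoxia and at 0.29 and 1.35 in air. The mitochondrion is represented by nuclear genes: CYTC-2, for the electron carrier cytochrome c, and AT5G26200, of the mitochondrial carrier family. CYTC-2 stood at 2.95 and 2.12 with sucrose, at 2.06 and 1.77 under anoxia and at 0.94 and 0.72 in air, so that both sucrose arrays lay above both anoxia arrays. AT5G26200 stood at 2.48 and 0.08 with sucrose, at 2.97 and 1.05 under anoxia and at 0.69 and -0.07 in air, and in experiment 2 its level with sucrose was only 0.15 above air. The gene hemf2, for coproporphyrinogen oxidase, a step of haem and chlorophyll synthesis that uses oxygen, stood at -0.36 and 1.40 with sucrose, at 1.86 and 0.91 under anoxia and at 0.19 and -0.11 in air. Its 2 sucrose arrays disagreed, since the one of experiment 1 was below air and the one of experiment 2 above anoxia. The rest include a glutaredoxin family gene (AT1G64500), an AMP-dependent ligase (AT5G63380), an ABC1 kinase family gene (AT3G24190), 2 hydrolases of the haloacid dehalogenase type (AT5G44730 and AT2G41250), AT4G20320 and AT3G02910.

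No member came from several lists of neighbouring pathways, which were chosen with earlier results of these data known. Of the tested genes for carbon and nitrogen use (5), sugar starvation (5), oxidative and mitochondrial stress (3), ethylene (2) and abscisic acid (1), none passed the threshold in both experiments, and of 7 calcium-binding genes only CML38 did. These lists had few probe sets with a matched gene, so each count covers a small share of its pathway. None of the carbon and nitrogen or sugar starvation genes differed between anoxia and air by limma's adjusted test, with or without the block. Of all 15922 probe sets 37 did, or 404 with the block. At an unadjusted p under 0.05 the counts were 0 and 0, or 3 and 0 with the block. Over all probe sets they were 956, or 1879 with the block. In the mean of both experiments all 5 carbon and nitrogen genes were above air (median 0.82). So were 4 of the 5 sugar starvation genes (list median 0.53) and 9159 of all probe sets.

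Members for lipids, protein folding and the nucleus had modest differences. TIL, a temperature-induced lipocalin that protects membranes, stood at 6.67 and 5.46 with sucrose, at 6.16 and 5.61 under anoxia and at 4.06 and 4.01 in air. AT1G67360, a lipid droplet-associated protein gene, stood at 2.52 and 3.65 with sucrose, at 2.37 and 2.51 under anoxia and at 0.98 and 0.95 in air. Its sucrose arrays were above the anoxia arrays in both experiments, by 0.15 and 1.14. A monoacylglycerol lipase family gene (AT1G73480) and a lipid transfer family gene (AT4G22490) complete the lipid members.

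The exclusion went by a list of heat shock genes and by gene symbol, and 5 members linked to protein folding were not covered by it. These are AT5G48570 (ROF2, a peptidyl-prolyl isomerase of the heat response), Fes1A, a cochaperone of HSP70, AT2G20560, of the DnaJ class of heat shock proteins, the FKBP-like AT5G05420 and AT1G66080, related to the HSP70 nuclear carrier Hikeshi. AT5G48570 had signals of 141 and 824 with sucrose, 166 and 367 under anoxia and 35.2 and 99.3 in air, before centring. As centred levels it was 1.85 and 1.70 higher under anoxia than in air, and 0.51 and 0.66 higher again with sucrose. Of these 5, 3 were above anoxia with sucrose in both experiments and 4 stayed more than 1 above air in both. Over all members these shares were 19.6% and 67.6%, and over all probe sets 25.6% and 1.44%. The 3 members for the nucleus and RNA are a nucleoporin (AT1G59660), a splicing factor (AT1G60200) and an RNA helicase (AT4G16680). All 3 stayed more than 1 above air with sucrose in both experiments, as did 67.6% of members and 1.44% of all probe sets. These groups were put together by hand from members chosen on the same air arrays, so nothing is read from their counts.

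Of the 5 genes of cell wall, defence and seed, 3 (AT4G30380, M10 and PAP85) had levels under anoxia more than 2 apart between the experiments. AT4G30380, an expansin-like gene (EXLB2), stood at 3.58 and -1.32 with sucrose, at 2.68 and -0.39 under anoxia and at -1.87 and -1.49 in air. Under anoxia its difference from air was large in experiment 1 and close to the threshold in experiment 2. M10, a late-embryogenesis-abundant-like gene, stood at 3.57 and -0.90 with sucrose, at 3.01 and -0.22 under anoxia and at 1.70 and -1.44 in air. PAP85, a vicilin-like seed storage protein gene, stood at 2.86 and 0.79 with sucrose, at 3.68 and 1.41 under anoxia and at 2.12 and 0.23 in air. For both seed genes all 3 arrays of experiment 1 were above their counterparts of experiment 2, and the anoxia array of experiment 2 was below the air array of experiment 1. They are 2 of the 4 members whose anoxia and air arrays overlap across experiments. AT1G48100, a pectin lyase-like gene, stood at 0.36 and 1.22 with sucrose, at 0.25 and 0.09 under anoxia and at -0.80 and -1.05 in air, and THI2.2, a thionin, is the remaining gene of this group.

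**Figure D3:**
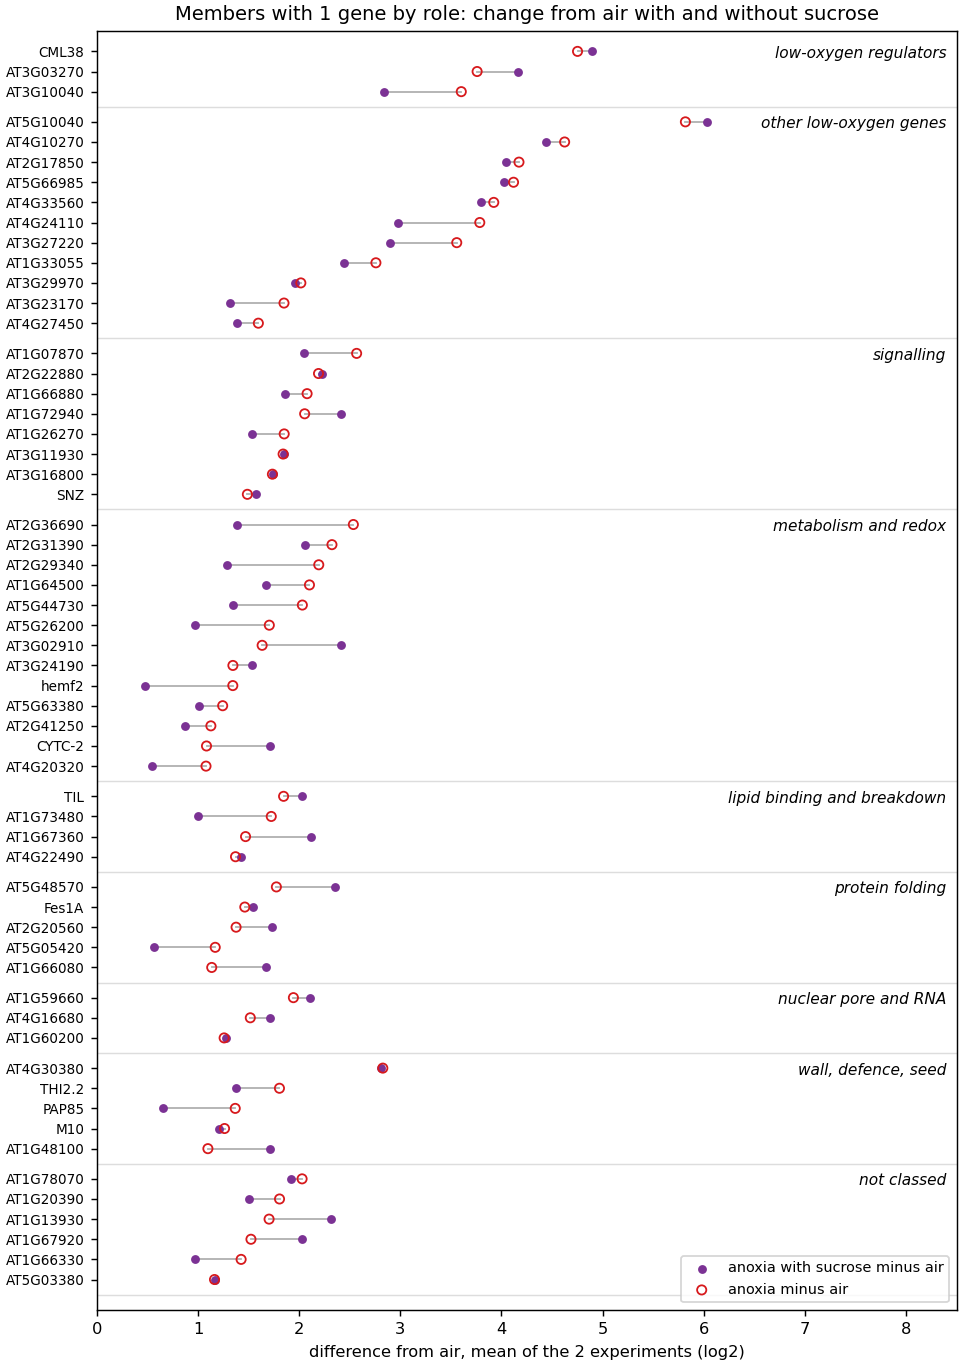
Each row is 1 member gene, sorted by role, and the horizontal axis is the difference from air in log2 units, the mean of both experiments. Filled points are anoxia with sucrose minus air and open points anoxia minus air; the open points of the low-oxygen genes of unknown or family-level function reach from 1.60 to 5.82, and those of the folding, lipid and nuclear genes stay under 2.

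The last 6 members with a gene could not be placed by role. AT1G13930, the only one of them among the genes highest with sucrose, stood at 5.24 and 3.24 with sucrose, at 3.91 and 3.35 under anoxia and at 2.36 and 1.49 in air. The others are AT1G78070, AT1G67920, AT1G66330, AT5G03380 and AT1G20390, which RefSeq lists as a pseudogene. The 58 genes lie on all 5 chromosomes, with between 0.487% and 0.802% of the tested genes of each. AT2G41250 and M10 on chromosome 2 have 1 coding gene between them.

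The next comparison asks whether sucrose altered these genes under anoxia. It rests on the same anoxia arrays that chose the members, and the rule put a ceiling on it. Both favour lower values with sucrose among members than among all probe sets, so the counts are descriptions. The median member was -0.06 from its anoxia level in experiment 1 and -0.17 in experiment 2, and -0.12 in the mean, against -0.05, 0.07 and -0.01 over all probe sets tested. The median in the mean changed sign when some single arrays were left out. It was 0.22 without anoxia array 1 and 0.23 without sucrose array 2, and -0.50 without either of the others. Leaving out 1 array sets both experiments of 1 group against 1 experiment of the other. These values therefore carry the difference between experiments and do not show that any array sets the direction. Within 1 of the anoxia level in both experiments were 102 members (68.9%, against 89.1% of all), and 1 member (0.676%, against 0.0565%) was more than 1 below it in both. Both sucrose arrays lay above both anoxia arrays for 13 members (8.78%, against 9.47% of all probe sets) and below both for 21 (14.2%, against 10.2%).

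Many members differed in the sign of the sucrose difference between the 2 experiments, though a smaller share than of all probe sets tested. The signs were opposite in 66 members (44.6%, against 53.1% of all probe sets). The difference was below 0 in both in 53 (35.8%, against 21.2%) and above 0 in both in 29 (19.6%, against 25.6%). In experiment 1, on the array with the high 3' to 5' ratios, 21 members were more than 1 below anoxia in that experiment only (14.2%, against 5.84% of all). More than 1 above were 10 (6.76%, against 3.14%). In experiment 2 alone the counts were 7 below (4.73%, against 0.634%) and 8 above (5.41%, against 0.961%). Across the 148 members the sucrose difference in experiment 1 correlated with that in experiment 2 at r = 0.151, as a description over probe sets that share the same arrays. Among the 19 from the low-oxygen list, the median was 0.11 in experiment 1 and -0.57 in experiment 2, against -0.05 and 0.07 over all probe sets. Of the 19, 9 (47.4%) were above anoxia in the first and below it in the second, against 28.4% of members and 20.9% of all probe sets.

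**Figure D4:**
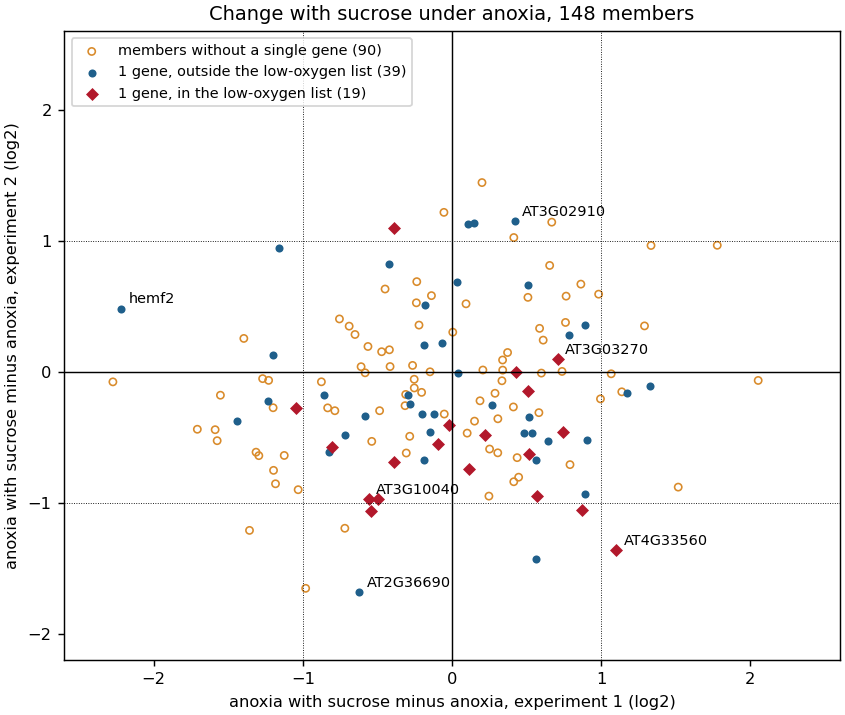
Each point is a member, with anoxia with sucrose minus anoxia in experiment 1 on the horizontal axis and in experiment 2 on the vertical axis, in log2 units. Members from the low-oxygen list lie mostly below 0 in experiment 2 and on both sides of 0 in experiment 1, and hemf2, AT4G33560 and AT2G36690 lie far out.

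No member passed limma's adjusted test between anoxia with sucrose and anoxia (0 of 15922 probe sets, 0% called), nor did any once the experiment was blocked on, where 3 probe sets (0.0188%) passed. At an unadjusted p under 0.05, 2 of the 148 members differed, and 161 of all probe sets (1.01%) did. Both members were lower with sucrose (0.245% of all probe sets were lower and 0.766% higher). With the block 558 of all probe sets differed (3.5%), 372 of them higher (2.34%) and 186 lower (1.17%). Of the 148 members 20 then differed, 6 higher and 14 lower, a direction that the choice of members favours. One of the 2 found without the block is AT2G36690, the oxygenase family gene, at -0.62 and -1.69 in the 2 experiments. Its mean was -1.15 (SE 0.40, limma adjusted p = 1.00). The other has no gene in the annotation and is the 1 member more than 1 below anoxia in both experiments. It stood at 1.74 and 1.87 with sucrose, at 3.10 and 3.09 under anoxia and at 1.06 and 1.31 in air, so that the 3 groups did not overlap. Both were chosen for naming after their values were seen in this test. An adjusted p of this kind does not show that sucrose left the members as they were.

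The 6 genes lowest with sucrose are AT2G36690, AT2G29340 (-1.44 and -0.37), hemf2 (-2.22 and 0.48), AT4G24110 (-0.54 and -1.07), AT3G10040 (-0.56 and -0.98) and AT5G26200 (-0.49 and -0.98). All but hemf2 had the same sign in both experiments. Ranking by the mean of both experiments favours a shared sign, here and among the 6 highest, so nothing is read from it. The 6 highest are AT3G02910 (0.42 and 1.15), AT1G67360 (0.15 and 1.14), CYTC-2 (0.89 and 0.35), AT1G48100 (0.11 and 1.13), AT1G13930 (1.33 and -0.11) and AT5G48570 (0.51 and 0.66), and only AT1G13930 had opposite signs. AT3G02910, of the AIG2-like family, stood at 3.88 and 3.11 with sucrose, at 3.46 and 1.96 under anoxia and at 1.20 and 0.95 in air. In the metabolism and redox group 8 of 13 were below anoxia with sucrose in both experiments and 2 above. Over all members these shares were 35.8% and 19.6%, and over all probe sets 21.2% and 25.6%. The group was put together by hand after the members were known, so nothing is read from its counts.

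Set against air, members stayed high with sucrose. The median was 2.05 in experiment 1 and 1.58 in experiment 2, against 0.03 and 0.11 over all probe sets tested. More than 1 above air in both experiments were 100 members (1.44% of all), and above air by any amount in both were 145 (34.1%). These counts use the air arrays that chose the members. Both sucrose arrays were above both air arrays for 133 of 148 (89.9%, against 18.7% of all). The genes among the exceptions are THI2.2, AT1G73480, AT5G26200, PAP85, hemf2, M10 and AT4G20320.

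By limma's adjusted test 17 members were higher under anoxia than in air, 7 of them with 1 gene. They are all the probe sets called higher (0.107% of 15922). Nothing is read from this count because the rule used the contrast. With sucrose against air 24 probe sets were called higher (0.151% of all), and 12 of them are members. Nothing is read from that count either, since it uses the air arrays that chose the members. The 4 of them with 1 gene are AT5G10040 (7.16 and 4.91 above air in experiments 1 and 2), CML38 (5.94 and 3.85), AT4G10270 (5.12 and 3.75) and AT3G03270 (4.72 and 3.61). Blocking on the experiment made the counts 113 of the 148 members under anoxia against air and 106 with sucrose against air. Among all 15922 probe sets 153 (0.961%) and 258 (1.62%) were then called higher. Leaving out air array 1 or 2 ended all calls with sucrose against air. With 2 arrays a group, the number of arrays limits the precision.

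The members with no gene were like the named ones in size. Their median anoxia minus air was 2.14 and 1.59 (90 members with no single gene), against 2.20 and 1.45 for the 58 with 1 gene. The largest difference of any member, 6.36 in the mean of both experiments, belongs to a probe set with no gene. Its signals before centring were 2819 and 2384 with sucrose, 3673 and 1700 under anoxia and 16.7 and 12.4 in air. All its anoxic arrays were far above air, and its level with sucrose was 0.34 and 0.01 above that under anoxia. Names ending in s_at or x_at, which mark probes shared between similar transcripts, belong to 10 members, so their signal may come from more than 1 gene.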

How the data were processed

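The study's 6 Affymetrix arrays were analysed, 2 for each group. Per probe set, the authors deposited 1 linear intensity. The labels say that targets were made by the standard Affymetrix procedure, and software, background correction and any scaling were not given in the sources used here. The 64 control probe sets were left out. A pseudocount of 16 was added, log2 taken and each array centred on its median; probe sets with a 6-array mean at or above the 30th percentile were kept. Groups and experiment numbers come from the sample titles.

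The members follow a given rule. Members, lists and roles were chosen with earlier results of these data known, and role groups were assigned by hand after the members were known. Gene names come from the platform annotation matched to RefSeq's table of TAIR10.1, used for names and neighbours only. Organelle genes include the copies of mitochondrial genes inserted on chromosome 2. Heat shock and fermentation genes were left out by list. Given with all arrays were the 12 members with 1 gene and the largest mean anoxia minus air, up to 8 members per list, the 6 lowest and 6 highest with sucrose, and those at the threshold, mostly as centred levels. AT1G07870, AT2G31390, TIL, M10 and PAP85 were added after their values were seen.

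Tests used limma 3.58.1 (R 4.3.3): a group-means model (lmFit) fitted to the 6 arrays together, and eBayes with an intensity trend (3 residual degrees of freedom, prior 6.97), two-sided, Benjamini-Hochberg adjustment over all 15922 probe sets, threshold 0.05. The p-values measure the spread between these arrays. Python 3.11.15 with numpy 2.4.6, pandas 2.3.3 and matplotlib 3.10.9 did the rest, and the fit was tested on simulated data. Experiment numbers recur in every group and were taken as pairs of arrays, without a stated common day: the difference between replicates correlated across probe sets at 0.562 between the anoxic groups, 0.383 between anoxia and air and 0.392 between anoxia with sucrose and air. Alternatives were pseudocounts of 1 and 64, quantile normalization, trimmed-mean centring, no filter, a filter at the 50th percentile, no intensity trend, only the 4 arrays compared, the experiment as a block and leaving out each array.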

Additional observations from a re-analysis of the deposited data

How the results depend on the processing

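The rule found 283 members with a pseudocount of 1 (147 of them shared with the 148) and 74 with 64 (all shared), so the list depends on how low signals are treated. Members called higher under anoxia than in air, 17, became 1 with pseudocount 1, 11 with quantile normalization, 34 with no filter, 7 without the intensity trend, 35 with only the 4 arrays compared and 113 with the experiment as a block. They ranged between 0 (without either anoxia array) and 34 when 1 array was left out, and were 1 without either air array. Members called with sucrose against air, 12, became 5 with pseudocount 1, 21 with 64, 6 with quantile normalization, 43 with no filter, 19 with the 50th percentile filter, 20 with trimmed-mean centring (for counts of calls, chosen after seeing the data), 7 without the trend, 5 with only the 4 arrays and 106 with the block. They ranged from 0 (without either air array) to 31 (without sucrose array 2) when 1 array was left out, and were 7 without sucrose array 1, 5 without anoxia array 1 and 6 without anoxia array 2. No member was called between anoxia with sucrose and anoxia under any of these settings. The members' median with sucrose minus anoxia, -0.12, ranged from -0.50 to 0.23 when 1 array was left out. It was -0.50 without sucrose array 1, 0.22 without anoxia array 1, and stayed between -0.15 and -0.07 under other pseudocounts and scalings. The causes were not tested, except that leaving out arrays leaves fewer samples and an uneven share of the experiments in the groups compared. Medians and signs with 1 anoxic array left out therefore carry the difference between experiments. Of 23 named members, 20 kept the sign of that difference under every pseudocount and scaling tried, and 6 kept it without any one array as well: AT2G36690, AT2G29340, AT3G02910, AT1G67360, CYTC-2 and AT1G48100. These 6 are all among the genes picked as lowest or highest with sucrose, a choice that favours a kept sign.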
